A study of Rattus norvegicus with 9 samples.

Results

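The positive acute-phase plasma proteins described here are haptoglobin (Hp), hemopexin (Hpx), alpha-2-macroglobulin (A2m), alpha-1-acid glycoprotein (Orm1), lipocalin 2 (Lcn2), C-reactive protein (Crp), ceruloplasmin (Cp), the inter-alpha-trypsin inhibitor heavy chains Itih3 and Itih4, and the serine protease inhibitor Serpina3n. These 10 genes were chosen by name, and 9 of them were found by symbol among the 32883 genes of the deposited tables of rat liver RNA-seq. All 9 had enough reads to be tested, among 14089 tested genes. No row carried the symbol Serpina3n, which is taken up separately at the end.

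The acute-phase response is the change in liver protein output that follows infection or injury. Cytokines released by macrophages and other cells, mainly interleukin 6 and interleukin 1, act on hepatocytes, where STAT3, NF-kappaB and C/EBP factors raise the transcription of a set of secreted proteins and lower that of others such as albumin. In the rat, alpha-2-macroglobulin and alpha-1-acid glycoprotein are known as strongly inducible acute-phase proteins, whereas C-reactive protein, the leading marker in humans, is a constitutive plasma protein that responds little.

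The livers came from male Sprague-Dawley rats, obtained at 8 to 11 weeks of age by the paper. Age when the livers were taken is not given, and may differ between normal and ligated rats. Of the livers, 3 came from normal rats and 6 from rats with acute-on-chronic liver failure (ACLF). ACLF was produced by bile duct ligation for 21 days followed by intraperitoneal lipopolysaccharide (LPS) at 0.25 mg/kg. Both ACLF groups underwent extracorporeal blood circulation for 2 h, started 1 h after LPS, and their livers were taken 24 h after LPS. In the Empty group (n = 3) the circuit held neither cells nor an adsorption column. In the UTOpiA group (n = 3) it held a granulocyte and monocyte adsorption column together with alginate-encapsulated hepatocyte-like cells, made from genome-edited human iPSCs. Because both parts of UTOpiA were used together, and both ACLF groups had the ligation, the LPS and the circulation together, the effects of these cannot be told apart.

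Each library held between 14241172 and 17321677 counted reads, and the median SD of log2 CPM (counts scaled to the library total) within a group was 0.19 in normal, 0.29 in Empty and 0.30 in UTOpiA livers. Levels are given as TPM (counts scaled by transcript length and then to the same total in each library). The hepatocyte markers other than albumin, 12 genes, were present throughout, with a summed level of 7520 to 8031 TPM in normal livers, 5291 to 8643 in Empty and 6159 to 9209 in UTOpiA livers. Of all 13 hepatocyte markers, albumin included, 1 was called higher (7.69%) and 6 lower (46.2%) in Empty against Normal, beside 20.7% and 11.1% of all tested genes. In UTOpiA against Normal, 1 (7.69%) and 2 (15.4%) were, beside 18.2% and 6.81%. Albumin fell from between 11.5% and 12.7% of all TPM in normal livers to between 1.28% and 3.36% in the ACLF livers. Of the lists of other cell types, in Empty against Normal 11 of 12 tested cholangiocyte markers, 10 of 13 macrophage markers, 9 of 12 stellate and fibroblast markers, 8 of 9 neutrophil markers and 2 of 10 endothelial markers were called higher, beside 20.7% of all tested genes. In UTOpiA against Normal these numbers were 11, 9, 10, 8 and 2, beside 18.2%. The endothelial share (20%) was near that of all genes in both comparisons. The part of these markers in the results below was not tested. The liver Empty replicate 2 stood apart within its group: counts differed between it and the other Empty livers by a chi-square per degree of freedom of 164 and 212, against 43.8 between those 2.

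Promoter sequence was available from RefSeq (build GRCr8) for 8 of the 10 genes, from 250 bases before to 50 after the annotated start. They were searched on both strands for 4 motifs: the STAT-type site TTCNNNGAA, the type 2 interleukin 6 response element CTGGGAA, the C/EBP site TTGCNNAA and the TATA box TATAAA. The STAT-type site was found in 2 of 8 members (Itih4, Serpina3n) and in 8.87% of all 33469 promoters, and the type 2 element in 3 of 8 (Itih4, Lcn2, Serpina3n) against 11.3%. The C/EBP site was found in 5 of 8 (Hpx, Orm1, Lcn2, Cp, Itih4) against 10.6%, and the letters of the TATA box in 5 of 8 (Orm1, Crp, Cp, Itih3, Itih4) against 14.2%. Of these, the Crp match covered bases 0 to 5, at and after the annotated start, and the Itih4 match lay on the opposite strand only. In Itih4 and Serpina3n the STAT-type site and the type 2 element overlapped in the same letters. Hpx, Orm1 and Lcn2 are shown because they were among the most raised members, and Itih4 because its promoter held all 4 motifs while its level did not pass the test in either ACLF group. Each is printed 5′ to 3′ on the strand of its gene, with all matches in capitals.
Hpx (chr1:169352106-169352405, minus strand): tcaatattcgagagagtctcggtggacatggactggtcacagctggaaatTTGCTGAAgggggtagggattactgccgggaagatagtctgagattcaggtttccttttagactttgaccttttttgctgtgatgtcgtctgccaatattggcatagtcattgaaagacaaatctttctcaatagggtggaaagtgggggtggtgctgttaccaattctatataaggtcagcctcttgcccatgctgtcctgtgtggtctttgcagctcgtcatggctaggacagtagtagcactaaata
Orm1 (chr5:81788259-81788558, plus strand): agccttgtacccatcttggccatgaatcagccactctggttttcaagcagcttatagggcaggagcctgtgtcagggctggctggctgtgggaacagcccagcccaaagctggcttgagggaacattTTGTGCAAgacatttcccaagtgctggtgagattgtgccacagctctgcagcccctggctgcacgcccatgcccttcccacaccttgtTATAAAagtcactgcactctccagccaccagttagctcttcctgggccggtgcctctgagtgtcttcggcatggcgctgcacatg
Lcn2 (chr3:36081731-36082030, minus strand): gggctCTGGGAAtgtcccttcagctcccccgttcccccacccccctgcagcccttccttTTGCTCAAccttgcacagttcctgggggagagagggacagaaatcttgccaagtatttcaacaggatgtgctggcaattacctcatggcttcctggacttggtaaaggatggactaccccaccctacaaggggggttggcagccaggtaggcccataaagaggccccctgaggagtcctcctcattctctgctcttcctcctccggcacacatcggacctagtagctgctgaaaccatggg
Itih4 (chr16:6086735-6087034, plus strand): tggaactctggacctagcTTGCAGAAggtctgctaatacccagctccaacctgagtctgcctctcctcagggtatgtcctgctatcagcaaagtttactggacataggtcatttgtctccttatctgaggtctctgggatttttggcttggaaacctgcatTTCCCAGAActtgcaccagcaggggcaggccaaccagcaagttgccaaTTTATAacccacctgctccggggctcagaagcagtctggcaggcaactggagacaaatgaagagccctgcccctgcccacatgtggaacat
In Orm1 the C/EBP match covered bases -123 to -116 and the TATA box -35 to -30, counted from 0 at the start. In Lcn2 the type 2 element covered -245 to -239 and the C/EBP match -191 to -184. A match is a string of letters and does not show that a factor binds there, and a motif missing from these 300 bases may lie outside them.

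Haptoglobin and hemopexin, which bind free hemoglobin and free heme in plasma, were already among the most abundant liver transcripts of normal rats and rose further in ACLF. The Hp gene lies on chromosome 19, 42097995 to 42100804, plus strand, in build rn6 per the submitters' notes, as do all gene positions below. It stood at 11941, 10037 and 11948 TPM in the 3 normal livers, at 46404, 39684 and 36385 in the Empty livers and at 43763, 49951 and 51555 in the UTOpiA livers. Hp was the transcript with the highest TPM in each of the 6 ACLF livers (rank 1), against ranks 10 to 13 in normal livers, and the ACLF and normal livers did not overlap. By edgeR's quasi-likelihood test, with Benjamini-Hochberg adjustment over all genes tested, its log2 fold change was 1.34 (SE 0.33, adjusted p = 0.00864) in Empty and 1.81 (SE 0.34, adjusted p = 0.00304) in UTOpiA livers, both against Normal.

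The Hpx gene (chromosome 1, 170423483 to 170431073, minus strand) stood at 5876, 3919 and 5042 TPM in normal livers, at 40527, 19989 and 29529 in Empty and at 29199, 35182 and 42873 in UTOpiA livers. All ACLF livers lay above all normal ones, and Empty replicate 2 was the lowest of the 6. The log2 fold change was 2.09 (SE 0.42, adjusted p = 0.00330) in Empty and 2.58 (SE 0.43, adjusted p = 0.00184) in UTOpiA livers. By TPM, Hpx ranked between 20 and 30 among all genes in the normal group and between 2 and 5 in ACLF. In bulk tissue, more RNA per cell and a larger share of the cells that make it cannot be told apart, here as in all results below.

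Orm1 (chromosome 5, 79179417 to 79182820, plus strand), a carrier of drugs and steroids in plasma, showed a larger proportional rise from a lower start. Its level was 994, 609 and 687 TPM in normal livers, 25972, 6980 and 19861 in Empty and 20106, 19284 and 31749 in UTOpiA livers. The lowest ACLF value, in Empty replicate 2, was still far above the highest normal one. The change was 16.2-fold in Empty (log2 fold change 4.01, SE 0.59, adjusted p = 6.73e-04) and 26.2-fold in UTOpiA livers (4.71, SE 0.61, adjusted p = 5.67e-04). The 2 groups of ACLF livers overlapped.

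**Figure D1:**
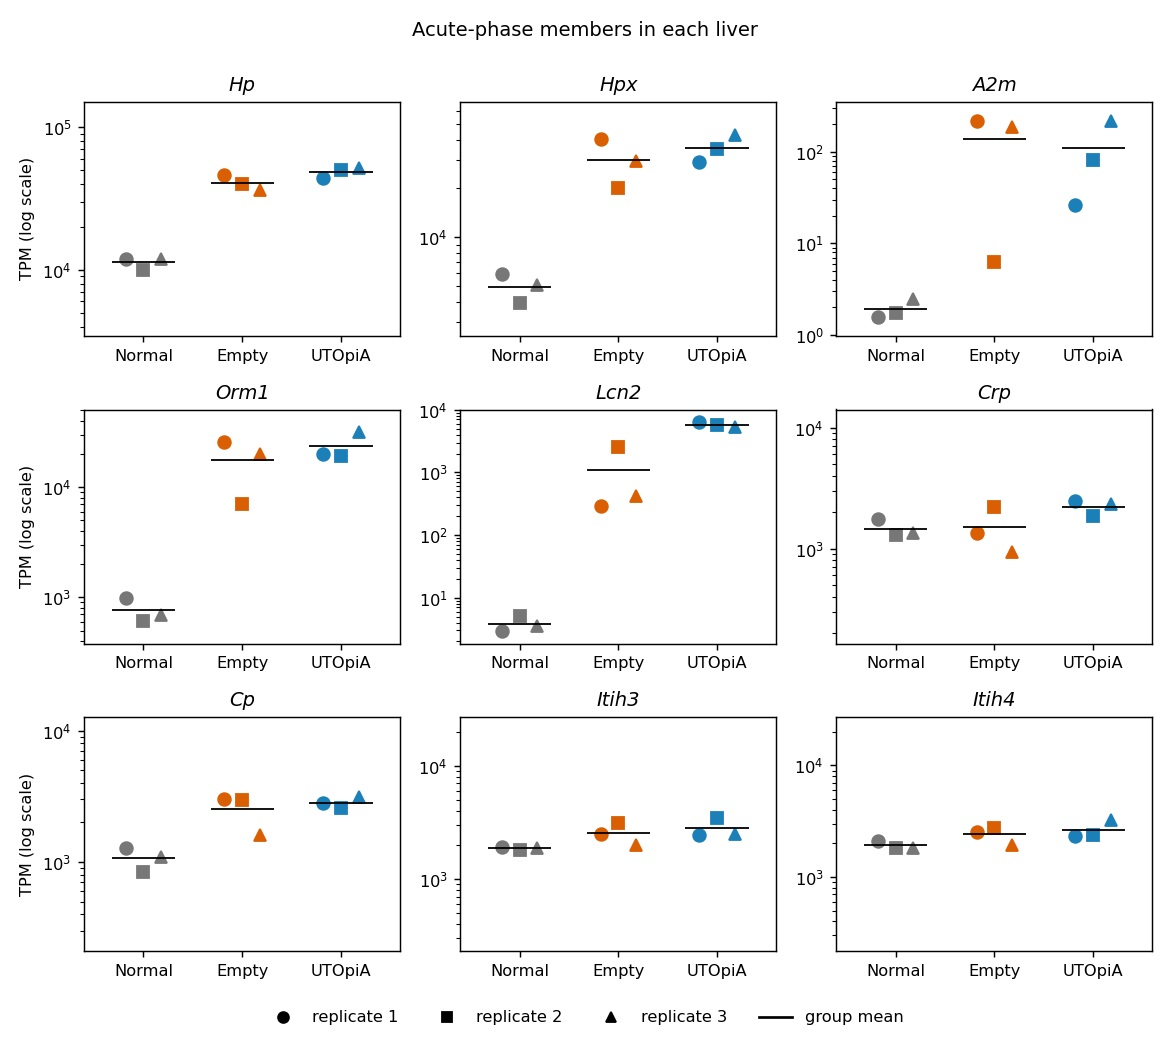
Level of each of the 9 measured members in TPM (log scale) in the 3 normal, 3 Empty and 3 UTOpiA livers; each point is a liver, its shape the replicate number, and the line the group mean. Hp, Hpx, A2m, Orm1, Lcn2, Cp and Itih3 lie higher in every ACLF liver than in any normal liver, Itih3 by a narrow gap (1997 against 1924 TPM), whereas the Empty livers for Crp, from 941 to 2194 TPM, span the normal range.

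A2m (chromosome 4, 154309426 to 154359137, plus strand), a broad protease inhibitor, was nearly silent in normal livers and had the most uneven level in ACLF. It stood at 1.56, 1.75 and 2.44 TPM in normal livers, at 219, 6.20 and 186 in Empty and at 26.3, 82.0 and 217 in UTOpiA livers. The highest Empty liver was thus 35.4-fold above the lowest, Empty replicate 2, and the highest UTOpiA liver 8.27-fold above the lowest, the widest spread of any member in both groups. Even so, no ACLF liver reached down to the normal range.

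The log2 fold change of A2m was 5.64 (SE 1.35, adjusted p = 0.00874) in Empty and 5.66 (SE 1.35, adjusted p = 0.0113) in UTOpiA livers. These sizes rested on single livers. The value for Empty was 5.02 (adjusted p = 0.0207) without Empty replicate 1 and 6.20 (adjusted p = 0.00134) without Empty replicate 2, and the value for UTOpiA fell to 4.29 (adjusted p = 0.0267) without UTOpiA replicate 3. Over 17 alternatives the log2 fold change ran from 4.53 to 6.20 in Empty and from 4.29 to 6.13 in UTOpiA livers, and the call held in all of them.

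Lcn2 (chromosome 3, 11414186 to 11417546, minus strand), which binds bacterial siderophores and so withholds iron from bacteria, had the largest fitted change of the members in both ACLF groups, although without Empty replicate 2 that of A2m in Empty livers was larger (6.20 against 5.97 on the log2 scale). It stood at 2.95, 5.03 and 3.52 TPM in normal livers, at 290, 2523 and 417 in Empty and at 6310, 5694 and 5359 in UTOpiA livers. The UTOpiA livers were close together, with the highest 1.18-fold above the lowest, whereas the Empty livers spanned 8.69-fold with Empty replicate 2 the highest. All UTOpiA livers lay above all Empty livers, and all Empty livers above all normal livers.

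Against Normal, Lcn2 was 197-fold higher in Empty (log2 fold change 7.62, SE 0.96, adjusted p = 4.17e-04) and 1219-fold higher in UTOpiA livers (10.25, SE 1.06, adjusted p = 2.79e-04). Without Empty replicate 2 the former was 62.9-fold (5.97, adjusted p = 1.63e-05). Ranked by TPM among all genes, it lay between places 8222 and 9559 in the normal group and between 18 and 24 in UTOpiA.

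Ceruloplasmin, the copper-carrying ferroxidase of plasma, was called in UTOpiA but not in Empty livers, a difference that was not itself past the test (adjusted p = 0.755 by edgeR). Cp (chromosome 2, 104744461 to 104799853, plus strand) stood at 1279, 844 and 1088 TPM in normal livers, at 3010, 2959 and 1614 in Empty and at 2813, 2555 and 3136 in UTOpiA livers. The log2 fold change was 0.74 in Empty (SE 0.38, adjusted p = 0.132), which did not pass the test, and 1.13 in UTOpiA livers (SE 0.38, adjusted p = 0.0397), which did. Empty replicate 3 was the low liver of its group, and in TMM-normalised CPM it fell within the normal range.

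The call of Cp in UTOpiA livers was not stable. Without Normal replicate 1, 2 or 3 its adjusted p was 0.0690, 0.141 or 0.103, and without UTOpiA replicate 1 or 3 it was 0.0741 or 0.113. In Empty livers, conversely, Cp passed the call when limma was applied to log2(TPM + 1), with a log2 fold change of 1.20 (adjusted p = 0.00570).

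Crp, Itih3 and Itih4 did not pass the test in either ACLF group. Crp (chromosome 13, 91054974 to 91093713, plus strand) stood at 1759, 1295 and 1342 TPM in normal livers, at 1346, 2194 and 941 in Empty and at 2457, 1876 and 2315 in UTOpiA livers, with a log2 fold change of -0.48 (SE 0.39, adjusted p = 0.331) in Empty and 0.32 (SE 0.38, adjusted p = 0.542) in UTOpiA. Empty replicate 2, low for Orm1, Hpx and A2m, was the highest Empty liver for Crp.

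Itih3 and Itih4 encode chains of the hyaluronan-binding inter-alpha-trypsin inhibitor family, Itih4 lacking the covalent link to bikunin. They are neighbours on chromosome 16, with Itih3 at 6992062 to 7007287 on the minus strand and Itih4 at 6970342 to 6985579 on the plus strand. Itih3 stood at 1796 to 1924 TPM in normal, 1997 to 3145 in Empty and 2463 to 3445 in UTOpiA livers, and Itih4 at 1806 to 2114, 1941 to 2773 and 2311 to 3232. Their log2 fold changes in Empty were -0.05 (SE 0.28, adjusted p = 0.889) and -0.17 (SE 0.34, adjusted p = 0.697), and in UTOpiA 0.26 (SE 0.28, adjusted p = 0.481) and 0.20 (SE 0.34, adjusted p = 0.666).

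For Itih3 and Itih4 in Empty livers the sign was not fixed. On the count scale it turned without Empty replicate 3, to 0.13 for Itih3 and 0.0037 for Itih4, and for Itih3 also with a filter of at least 10 counts in every library (0.05). It turned for both on the TPM scale. On log2(TPM + 1) the median of all genes was 0.44 above Normal in Empty and 0.28 above it in UTOpiA livers, whereas by TMM-normalised counts it was 0.04 and 0.05. In Empty livers, Itih3 was 0.43 and Itih4 0.32 above Normal on the TPM scale, which relative to that median is -0.01 and -0.12. Crp was -0.05 on that scale in Empty, or -0.48 relative to the median.

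**Figure D2:**
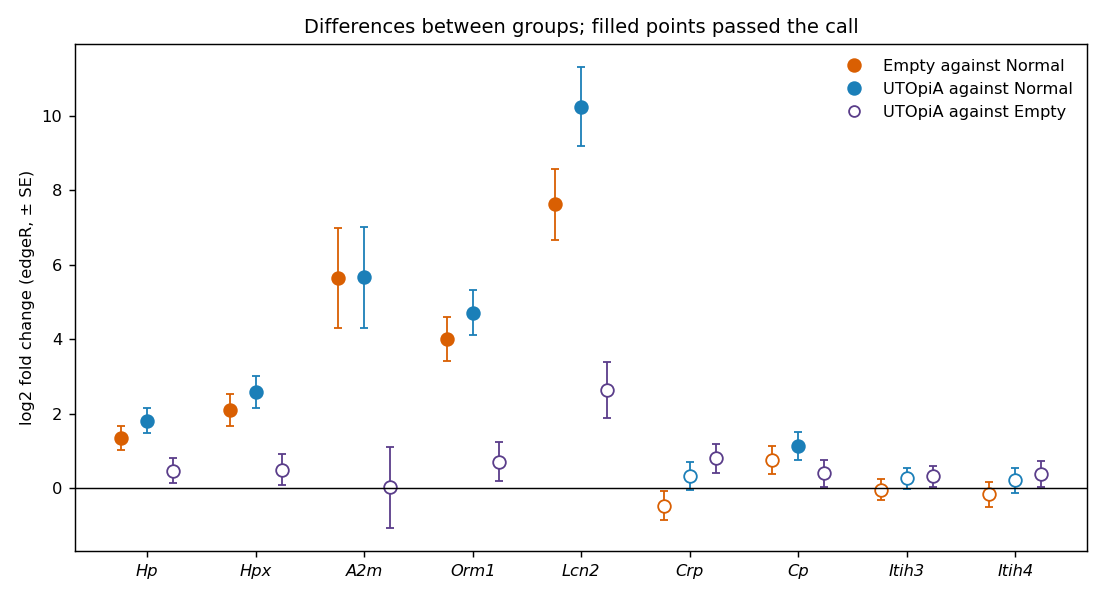
Log2 fold change of each measured member from edgeR, with bars of 1 SE, for Empty against Normal, UTOpiA against Normal and UTOpiA against Empty (n = 3 livers per group). Filled points passed an adjusted p under 0.05 and a fold above 2, which no member did in UTOpiA against Empty, where Lcn2 at 2.63 lies farthest from 0.

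In Empty against Normal, 5 of the 9 measured members were called higher (Hp, Hpx, A2m, Orm1, Lcn2) and 0 lower, where a call needed an adjusted p under 0.05 and a fold above 2. Of all tested genes, 20.7% were called higher and 11.1% lower. In UTOpiA against Normal, 6 of 9 were called higher, those 5 and Cp, and 0 lower, against 18.2% and 6.81% of all tested genes. Over the 9 members the median of the log2 fold changes was 1.34 in Empty and 1.81 in UTOpiA livers. On log2(TPM + 1) with limma the whole-table calls were split as 3202 higher and 690 lower in Empty and 2167 and 483 in UTOpiA, against 2916 and 1560, and 2563 and 959, by edgeR.

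How many members separated from the normal livers depended on the scale. In TMM-normalised CPM every Empty liver lay above every normal liver for 5 members, as for 32.4% of all tested genes, and every UTOpiA liver did so for 6, as for 30.8%. In TPM, a scale added after seeing the data, these numbers were 7 members (with Cp and Itih3) beside 53.4% of all tested genes in Empty, and all 9 measured members beside 39% in UTOpiA livers. Without Empty replicate 2, the same 5 and 6 members were called. Both comparisons share the 3 normal livers, so they are not independent of each other.

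UTOpiA against Empty compares ACLF livers after circulation with the column and cells and after circulation without them. According to the paper, rats were chosen at random from the survivors of each group. It reports very high mortality in the Empty group and higher survival with UTOpiA. The Empty livers thus came from survivors of a group in which most rats died. Whether this selection affected the differences below was not tested. By edgeR no member was called in either direction, and neither was any other gene (0% higher and 0% lower). At an unadjusted p under 0.05 there were 1456 genes (10.3%), of which 1 was a member, Lcn2. All 9 members had a log2 fold change above 0, between 0.02 for A2m and 2.63 for Lcn2, with a median of 0.47 beside 0.00 over all genes. For A2m the sign turned, to -0.54 without Empty replicate 2, -1.35 without UTOpiA replicate 3 and -0.01 by DESeq2. On the log2(TPM + 1) scale the median of the members was 0.25 and that of all genes -0.17.

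For Lcn2 the difference between the 2 ACLF groups was 6.19-fold (log2 fold change 2.63, SE 0.75, unadjusted p = 0.00674, adjusted p = 0.349 by edgeR), and it did not survive the correction. It was called by DESeq2 (2.62, adjusted p = 0.00923), which called 0.376% of genes higher and 0.504% lower. It was also called by edgeR without Empty replicate 2, at 19.4-fold (4.28, adjusted p = 0.00484), among 26 genes then called higher and 22 lower. Over its 17 alternatives the adjusted p ran from 0.00484 to 0.816, with 2 calls. Lcn2 was the single member for which every UTOpiA liver lay above every Empty liver, which in TMM-normalised CPM held for 6.15% of all tested genes, with the reverse order for 5.97%, and in TPM held for 2.43%.

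The other members differed less between the ACLF groups, and for each the 2 groups overlapped in TMM-normalised CPM. The log2 fold change was 0.79 for Crp (SE 0.39, adjusted p = 0.518), 0.70 for Orm1 (SE 0.52, adjusted p = 0.683) and 0.49 for Hpx (SE 0.41, adjusted p = 0.715). For Hp, Cp, Itih3, Itih4 and A2m it lay between 0.02 and 0.47, with adjusted p between 0.654 and 0.996. A p above the threshold does not show that the groups were alike.

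Lcn2 is also a granule gene of neutrophils, and neutrophil markers were followed beside it. The summed TPM of 16 such markers was 8.64 to 12.2 in normal livers, 230 to 1247 in Empty and 191 to 572 in UTOpiA livers. S100a8 and S100a9, the calprotectin subunits, stood between 75.4 and 565 TPM in Empty and between 84.0 and 257 in UTOpiA livers. Of the 9 markers tested, 8 were called higher in each ACLF group against Normal. The list was mixed: Mmp8, a granule collagenase, stood at 5.71 to 17.002 TPM in Empty and 2.31 to 6.66 in UTOpiA livers against at most 0.0964 in normal livers, and the chemokine receptor Cxcr2 at 2.14 to 10.97 and 0.987 to 3.53 against 0. Among other granule genes, Ltf was listed at 0 in all 9 livers, Mpo, Elane and Prtn3 stayed at or under 0.990 TPM, and Camp and Ngp at or under 2.96 TPM. The receptor Cxcr1 was listed at 0 in all 9 livers. By staining, the paper found MPO-positive neutrophils in ACLF livers, fewer with UTOpiA, although Mpo RNA was scarce here. Which cells the Lcn2 RNA came from was not tested.

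Liver by liver, Lcn2 and the neutrophil markers did not run in the same order. Empty replicates 1 and 3 had the highest marker sums, 638 and 1247 TPM, with 290 and 417 TPM of Lcn2. UTOpiA replicate 3 had the lowest sum of the ACLF livers, 191 TPM, with 5359 TPM of Lcn2. None of the 9 neutrophil markers tested was called in UTOpiA against Empty, and all 9 had a log2 fold change below 0, with a median of -0.65.

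**Figure D3:**
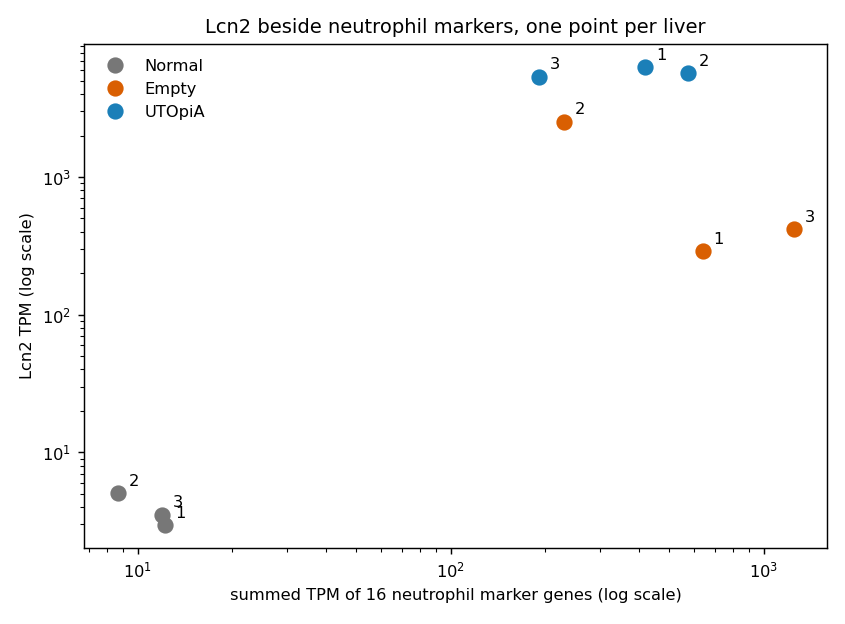
Lcn2 in TPM against the summed TPM of 16 neutrophil marker genes, both on log scales, with a point per liver labelled by its replicate number. The 3 UTOpiA livers lie at 5359 to 6310 TPM of Lcn2 with marker sums of 191 to 572, while the Empty livers reach up to 1247 in marker sum with at most 2523 TPM of Lcn2.

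Together the 9 measured members held a larger part of the transcript pool in ACLF. Their sum was 2.59%, 2.03% and 2.38% of all TPM in the 3 normal livers, 12.3%, 8.03% and 9.29% in Empty and 10.9%, 12.05% and 14.3% in UTOpiA livers. The mean was 2.33% ± 0.28 (SD, n = 3), 9.87% ± 2.19 and 12.4% ± 1.71. No ACLF liver overlapped the normal range, and the 2 ACLF groups overlapped. Hp, Hpx and Orm1 made up 71.7% to 74.2% of the members' TPM in normal livers, 83.1% to 92.4% in Empty and 85.0% to 88.3% in UTOpiA livers.

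The order of the members by mean TPM in normal livers was Hp, Hpx, Itih4, Itih3, Crp, Cp, Orm1, Lcn2, A2m. Of neighbours in this order, Itih4 and Itih3 overlapped between livers, as did Cp and Orm1, and Crp and Cp were separated by a narrow gap (lowest Crp liver 1295 TPM, highest Cp liver 1279). In UTOpiA livers the order was Hp, Hpx, Orm1, Lcn2, Cp, Itih3, Itih4, Crp, A2m, with Orm1 moving from the seventh place to the third and Lcn2 from the eighth to the fourth. There Hpx and Orm1 overlapped, as did Cp, Itih3, Itih4 and Crp with their neighbours, while Lcn2 stood clear of both sides. In Empty livers the order was Hp, Hpx, Orm1, Itih3, Cp, Itih4, Crp, Lcn2, A2m. There Hp and Hpx overlapped, as did Hpx and Orm1, and each neighbouring pair from Itih3 to Lcn2. Lcn2 ran from 290 to 2523 TPM, the highest in Empty replicate 2. A2m was the lowest measured member in all 9 livers.

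**Figure D4:**
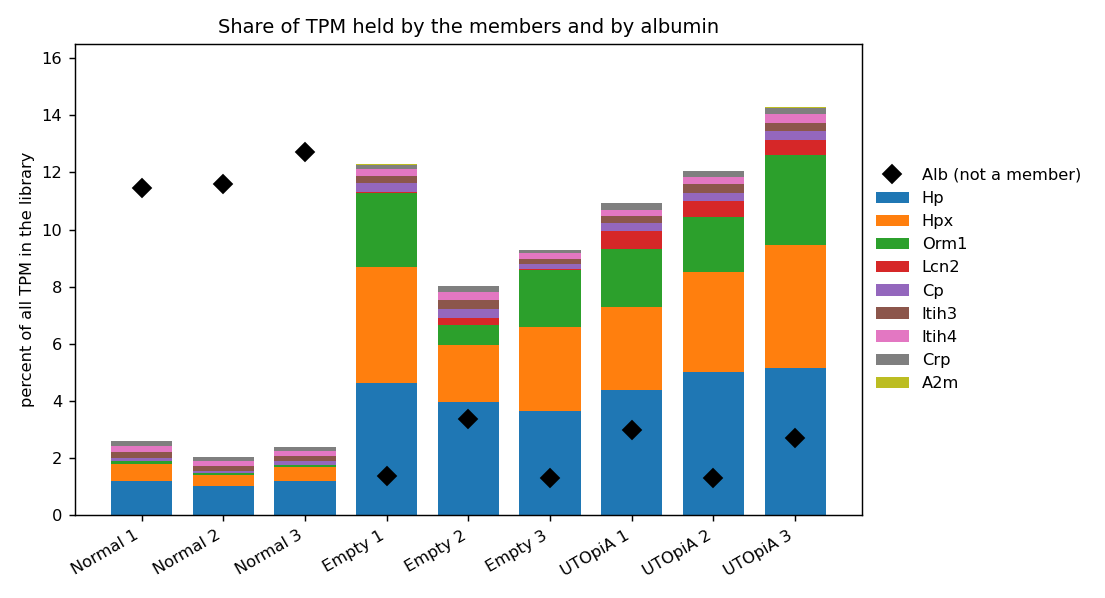
Stacked bars give the percent of all TPM held by each measured member in each of the 9 livers, and diamonds give albumin, which is no member. The members sum to 2.03% to 2.59% in the normal group and 8.03% to 14.3% over both ACLF groups, while albumin goes from 11.5% to 12.7% down to 1.28% to 3.36%.

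The cytokines that drive the response, with their receptors, were compared as a list of 17 tested genes, of which 6 were called higher and 1 lower in Empty and 3 and 1 in UTOpiA livers against Normal. In UTOpiA livers these shares, 17.6% higher and 5.88% lower, were near those of all tested genes (18.2% and 6.81%). In Empty livers they were 35.3% and 5.88%, against 20.7% and 11.1%. Il6 was listed at 0 in the 3 normal livers and stood at 1.15, 80.3 and 2.14 TPM in Empty and at 0.456, 0.726 and 0.208 in UTOpiA livers. Lif, a cytokine that signals through the same gp130 subunit, stood at 1.26, 33.6 and 1.39 TPM in Empty and 0.244 to 0.974 in UTOpiA livers. Both were thus far highest in Empty replicate 2. The call of Il6 in Empty livers was lost without any 1 normal liver or without UTOpiA replicate 2, with adjusted p of 0.0554 to 0.0645 by edgeR. Osmr, the oncostatin M receptor, was called in both groups, at 31.2-fold in Empty and 22.4-fold in UTOpiA livers, or 63.7-fold and 45.8-fold without Normal replicate 3. Il1b stood at 31.2 to 198 TPM in Empty and 4.90 to 43.1 in UTOpiA livers, against 1.79 to 2.27 in normal livers. The call of Il1b in UTOpiA livers was lost without any 1 normal liver or without UTOpiA replicate 2, with adjusted p of 0.0685 to 0.106 by edgeR.

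Of 22 transcription factors and feedback genes, 12 were called higher (54.5%) and 2 lower (9.09%) in Empty, and 10 (45.5%) and 0 in UTOpiA livers, beside 20.7% and 11.1%, and 18.2% and 6.81%, of all tested genes. Socs3, the inhibitor that IL-6 signalling induces against itself, stood at 58.1, 305 and 60.0 TPM in Empty and 33.9, 39.8 and 48.5 in UTOpiA livers, against 2.29 to 10.3 in normal livers. Junb, Cebpd and Pim1, which are early response genes of such signalling, were 24.5-fold, 23.9-fold and 14.5-fold higher in Empty livers against Normal. For all 4 genes Empty replicate 2 was the highest liver, and without it the folds in Empty were 8.20 for Socs3, 9.28 for Junb, 14.8 for Cebpd and 7.27 for Pim1, all still called. In UTOpiA livers Junb and Cebpd were 9.17-fold and 7.32-fold higher, and Pim1 stood at 5.41 to 9.10 TPM against 1.25 to 1.36 in normal livers. The calls of Socs3 and Pim1 in UTOpiA livers were not stable. That of Socs3 was lost without Normal replicate 2 or 3 or UTOpiA replicate 2 or 3, with adjusted p of 0.0657 to 0.0975 by edgeR. That of Pim1 was lost without any 1 normal liver or without UTOpiA replicate 2, with adjusted p of 0.0634 to 0.0656.

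Of 25 other positive acute-phase genes, 13 were called higher (52%) and 1 lower (4%) in Empty livers, beside 20.7% and 11.1% of all tested genes. In UTOpiA livers 14 (56%) and 1 (4%) were, beside 18.2% and 6.81%. Their median log2 fold change was 1.37 and 1.44, beside 0.04 and 0.05 over all genes. The metal-binding metallothionein Mt2A stood at 1.31 to 6.38 TPM in normal, 2912 to 4429 in Empty and 386 to 4187 in UTOpiA livers, and Mt1 at 3.21 to 11.3, 290 to 869 and 200 to 958. Lbp, the LPS-binding protein, was 42.6-fold higher in Empty and 29.1-fold higher in UTOpiA livers, and Il1rn, the interleukin 1 receptor antagonist, 13.2-fold and 4.56-fold. In UTOpiA against Empty, Il1rn had a log2 fold change of -1.53 (adjusted p = 0.170 by edgeR), which was called without Empty replicate 2 (-1.31, adjusted p = 0.0455) and without UTOpiA replicate 2 (-1.71, adjusted p = 0.0376).

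The fibrinogen chains Fga, Fgb and Fgg, named after their values were seen, were called higher in Empty livers, at 3.19-fold, 3.19-fold and 2.89-fold, and in UTOpiA livers, at 2.95-fold, 2.94-fold and 2.73-fold. These calls were not stable. In Empty livers all 3 were lost without Empty replicate 1, Normal replicate 2 or Normal replicate 3, those of Fgb and Fgg without Normal replicate 1 and that of Fgg without Empty replicate 3, with adjusted p of 0.0512 to 0.0841 by edgeR. In UTOpiA livers all 3 were lost without any 1 normal liver or without UTOpiA replicate 2 or 3, with adjusted p of 0.0614 to 0.108. Fga stood at 16216, 5021 and 12003 TPM in Empty livers and at 5226, 11176 and 10054 in UTOpiA livers. Empty replicate 2 and UTOpiA replicate 1 were the low livers for fibrinogen, as they were for A2m.

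**Figure D5:**
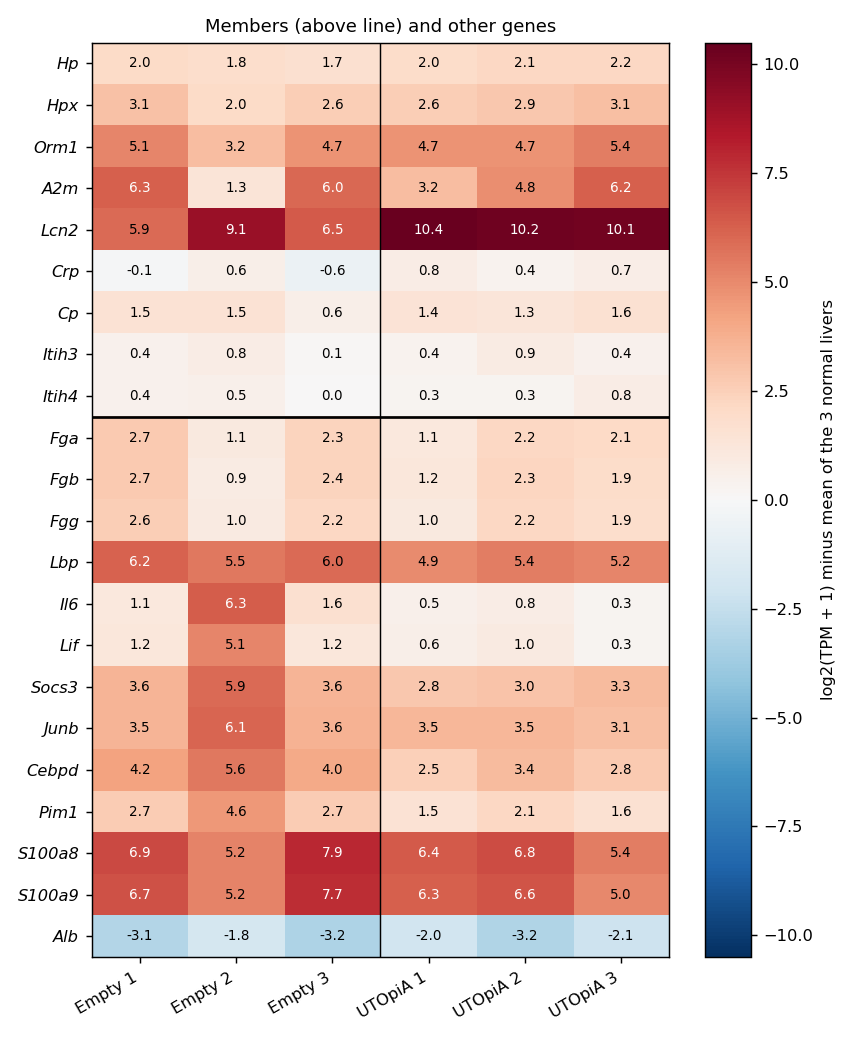
Log2(TPM + 1) minus the mean of the 3 normal livers, in each of the 6 ACLF livers, for the 9 measured members (above the line) and for fibrinogen, Lbp, cytokine, feedback, neutrophil and albumin genes below it. In Empty replicate 2, A2m is at 1.32 and Orm1 at 3.22, the lowest of the 6 livers, while Il6 at 6.35 and Socs3 at 5.92 are the highest.

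Among 16 negative acute-phase genes, 12 were called lower (75%) and 2 higher (12.5%) in Empty livers, beside 11.1% and 20.7% of all tested genes. In UTOpiA livers 5 (31.2%) and 2 (12.5%) were, beside 6.81% and 18.2%. Their median log2 fold change was -1.55 and -0.90, beside 0.04 and 0.05 over all genes. Serpina4 (kallistatin) was -3.87 in Empty and -3.71 in UTOpiA livers on the log2 scale. Serpina6 (corticosteroid-binding globulin) stood at 486 to 641 TPM in normal livers, at 15.95, 138 and 17.5 in Empty and at 104, 6.69 and 17.6 in UTOpiA livers. Igfals, the acid-labile subunit that carries insulin-like growth factors, stood at 234 to 273 TPM in normal livers, at 5.54, 78.6 and 8.23 in Empty and at 164, 39.0 and 103 in UTOpiA livers. Empty replicate 2 was the highest Empty liver for both. Serpina7 (thyroxine-binding globulin) went the other way, at 15.2-fold and 11.3-fold higher. The call of Serpina6 was not stable. In Empty livers it was lost without Empty replicate 1 or 3 or Normal replicate 2, with adjusted p of 0.0560 to 0.0734 by edgeR. In UTOpiA livers it was lost without any 1 normal liver or UTOpiA replicate 2 or 3, with adjusted p of 0.0511 to 0.0822. Igfals lost its call in Empty livers without Empty replicate 3 (adjusted p = 0.0530).

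Receptors and partners of the members, 13 tested genes, were called higher for 5 and lower for 3 in Empty and for 4 and 1 in UTOpiA livers. The shares were 38.5% and 23.1% in Empty, beside 20.7% and 11.1% of all tested genes, and 30.8% and 7.69% in UTOpiA livers, beside 18.2% and 6.81%, where the lower share was near that of all genes. Cd163, the macrophage receptor for haptoglobin bound to hemoglobin, stood at 12.3 to 16.6 TPM in normal livers, at 95.4, 33.9 and 43.9 in Empty and at 31.0, 58.1 and 20.9 in UTOpiA livers. Its call in Empty livers (2.98-fold) was lost without Empty replicate 1 (1.899-fold) and without Normal replicate 2 (adjusted p = 0.0504 by edgeR), and UTOpiA livers, at 2.03-fold, passed the call without Empty replicate 1 or 2 but not with all 9 libraries. Hmox1, the heme-degrading enzyme, was 10.6-fold higher in Empty and 9.57-fold higher in UTOpiA livers, the latter 4.96-fold without UTOpiA replicate 3. Of the hemopexin and A2m receptor Lrp1 the log2 fold change was -0.53 and -0.08, neither past the test.

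For Lcn2, both described receptors had log2 fold changes below 0. Slc22a17 was -0.83 in Empty, under the fold needed for a call, and -1.12 in UTOpiA livers (adjusted p = 0.00305), or -0.98 and no longer called without UTOpiA replicate 2. Lrp2 (megalin) was -1.25 in Empty (adjusted p = 0.00428) and -0.97 in UTOpiA livers, the latter under the fold needed except without Normal replicate 3 (-1.07) or UTOpiA replicate 1 (-1.22). Mmp9, whose protein binds Lcn2 and which is a neutrophil marker here too, stood at 7.32, 1.76 and 13.5 TPM in Empty and 2.80, 5.68 and 0.723 in UTOpiA livers, against at most 0.111 in normal livers. Tnfaip6, which transfers the inter-alpha-trypsin inhibitor heavy chains to hyaluronan, stood at 3.68, 20.5 and 4.06 TPM in Empty and 1.48 to 3.34 in UTOpiA livers, against at most 0.170. Its call in UTOpiA livers was lost without Normal replicate 2 (adjusted p = 0.0523 by edgeR).

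Sequence relatives of the members moved in both directions. Of 13 tested, 3 were called higher and 5 lower in Empty, and 3 and 2 in UTOpiA livers. The share called higher was 23.1% in both groups, against 20.7% and 18.2% of all tested genes. The share called lower was 38.5% in Empty and 15.4% in UTOpiA livers, against 11.1% and 6.81%. The pentraxin Ptx3, related to Crp, was called higher in Empty livers and stood at 1.72, 4.63 and 5.58 TPM there and at 0.0619, 1.01 and 0.733 in UTOpiA livers, against at most 0.245 in normal livers. In UTOpiA livers it did not pass the test, except without UTOpiA replicate 1 (adjusted p = 0.0459 by edgeR). The lipocalin Ptgds, called higher in both groups, stood at 16.8, 11.9 and 31.3 TPM in Empty and 7.27, 15.2 and 2.76 in UTOpiA livers, against at most 0.148. Heph, a ferroxidase related to Cp and also called higher in both, stood at 3.26 to 4.61 and 1.36 to 5.82 TPM, against 0.159 to 0.699. The other gene called higher in UTOpiA livers was Serpina3m, at 2.23-fold, or 1.85-fold and not called without UTOpiA replicate 3. Mug1 and Mug2, the rat murinoglobulins related to A2m, stood at 1253 to 1557 and 204 to 231 TPM in normal livers and were -3.02 and -3.26 on the log2 scale in Empty and -2.77 and -2.62 in UTOpiA livers, with Mug2 in Empty at -4.07 without Empty replicate 2. The heavy chains Itih1 and Itih2 were called lower in Empty (-1.10 and -1.02). The call of Itih1 was lost without Empty replicate 1 or 3 or Normal replicate 1 or 3 (-0.91 to -1.08, adjusted p of 0.0558 to 0.0742 by edgeR), and that of Itih2 without Empty replicate 3 (-0.88) or Normal replicate 3 (-0.98), which fell under the fold needed. Apcs, another pentraxin, was -0.84 in Empty, under the fold needed, and -0.05 in UTOpiA livers.

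The genes with the pattern most like Lcn2, A2m and Orm1 were sought among 8127 genes, as the smallest root mean square difference over the 6 ACLF livers in log2 CPM minus the normal mean. For Orm1 they were Des (0.62), Vegfd (0.72) and Pla2g2d (0.72). For A2m they were Vegfd (1.26), Sned1 (1.56) and B3gnt7 (1.61). For Lcn2 the nearest were Ubd (1.63), Cdh17 (1.73) and Syt1 (2.36), of which Syt1 was listed at 0 in all 3 normal livers and Ubd stood there at 0.209, 46.6 and 0 TPM, so that their normal mean is poorly measured. These distances describe 6 livers that share the normal mean as their reference, and carry no test.

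Serpina3n, a serine protease inhibitor of the antichymotrypsin group, could not be followed with certainty. The row with its NCBI gene number, listed under RGD1565462, had 0 counts in all normal and UTOpiA livers and 7, 2 and 5 in the Empty livers. The nearby row LOC299282 was abundant, at 1152 to 1357 TPM in normal livers, at 4950, 1718 and 4049 in Empty and at 1558, 3813 and 2789 in UTOpiA livers, and Empty replicate 2 and UTOpiA replicate 1 were again the low ACLF livers. Its annotated span (chromosome 6, 127941526 to 128080889, build rn6 per the submitters' notes) encloses Serpina3c on the other strand, and members of this family share sequence, so reads could be divided between them. Serpina3c itself stood at 4136 to 5472 TPM in normal livers and at 200 to 2409 in ACLF.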

How the data were processed

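Whole liver RNA of 9 rats (3 normal, 3 ACLF Empty, 3 ACLF UTOpiA) was sequenced from poly(A)-selected libraries. The authors deposited counts per gene, as whole numbers without normalisation, made by their notes with Trimmomatic, HISAT2 and featureCounts on rn6. Their text names the same aligner and counter, but Cutadapt in place of Trimmomatic and the mouse build GRCm38 in place of rn6, so coordinates are given as deposited and were not converted. Whether reads were counted by strand is not given in the sources used here. The authors also deposited TPM, scaled by gene length.

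Counts were tested with edgeR 4.0.16 in R 4.3.3 (filterByExpr, TMM, robust quasi-likelihood fit of all 9 libraries by group, two-sided), with Benjamini-Hochberg adjustment over 14089 genes. Calls needed an adjusted p under 0.05 and a fold above 2. The SE was the log2 fold change divided by the root of F. DESeq2 1.42.0, limma 3.58.1 on log2(TPM + 1) and log2(TPM + 0.1) for genes of mean TPM of at least 1, other scaling, filters and designs, and leaving out each library served as alternatives. On simulated counts for UTOpiA against Empty (13888 genes, 200 changed 4-fold), edgeR recovered 144 of the changed genes (72%) with 7 false calls, and DESeq2 169 (84.5%) with 35. Counts limit precision by the range of 14241172 to 17321677 reads per library. Members were taken by symbol and all are described. Of other lists, up to 4 called genes with the largest change and a mean of at least 1 CPM were named, besides receptors, partners and relatives. The edited genes of the encapsulated cells are not reported here. The members and lists were chosen with earlier results of these data known. Figures were drawn with matplotlib 3.10.9.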

Additional observations from a re-analysis of the deposited data

How the results depend on the processing

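Calls of Hp, Hpx, A2m, Orm1 and Lcn2 against Normal held under all 17 alternatives. In UTOpiA against Empty, 1 member was called higher by DESeq2 and between 0 and 1 when a library was left out (1 without Empty replicate 2), against 0. Whole-table calls there were 53 higher and 71 lower by DESeq2, 26 and 22 without Empty replicate 2 and 32 and 17 without UTOpiA replicate 2. The median log2 fold change of members in Empty against Normal was 1.85 by limma with both pseudocounts, where the median of all genes rose too. Members' share of TPM over protein-coding nuclear genes was 2.73% in normal and 14.7% in UTOpiA livers, and 10.4% of counts in UTOpiA. Leaving out Hp it was 1.20%, 5.78% and 7.59% in normal, Empty and UTOpiA livers, leaving out Hpx 1.84%, 6.86% and 8.85%, and leaving out Orm1 10.1% in UTOpiA, since fewer genes are summed.

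Correlations between livers of different groups ran from -0.18 to 0.06 for same-numbered livers and from -0.19 to 0.29 for the others. With 3 livers per group, each taken relative to its group mean, such values cannot show whether same-numbered livers shared a batch. With a replicate block, 5 members were called higher in UTOpiA against Normal, Cp being lost (1.14, adjusted p = 0.0749 by edgeR). Of the 459 single-member values, 449 kept their side of the threshold, 4 gained and 6 lost the call. The sign turned in 14, in 0 of those called, and the cause was not tested. Leaving out each library for the other named genes, summing hepatocyte markers without albumin, and counting separated members in TPM were chosen after seeing the data.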
